A study of Homo sapiens with 171 samples.

Results

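The carcinoembryonic antigen-related cell adhesion genes CEACAM1, CEACAM5, CEACAM6, CEACAM7 and CEACAM19 were followed across 46 established ovarian cancer cell lines, untreated and after cisplatin. These 5 genes were taken from the 11 CEACAM genes and the 18417 genes measured, because their untreated level differed between lines or because of their change under cisplatin. Both kinds of value therefore served to choose them and are given here as descriptions, with no p-value. Where the fits over all genes called some of the 5, the count is given beside the share of all genes called, and nothing is read from such counts. Each gene was measured by 1 probe set, 8037205 for CEACAM1, 8029086 for CEACAM5, 8029098 for CEACAM6, 8037053 for CEACAM7 and 8029446 for CEACAM19.

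The study hybridised total RNA from each line to Affymetrix arrays, 171 arrays in 92 groups of line and treatment. One arm was left untreated and the other received cisplatin, a platinum compound that crosslinks DNA, for 48 h at the GI50 concentration of that line, so that the dose differed between lines. Repeat arrays of the same numbered culture were averaged, which left 167 cultures, 85 untreated and 82 treated. In batches 1 to 3, 18 lines had 3 cultures in each arm, except for HeyA8 with 2 treated cultures; in batches 4 and 5 a line had 1 culture in each arm, and 28 lines were measured only there. OVCA433 was measured in batches 2 and 4. Nothing in the labels said that numbered cultures were grown apart, so p-values below measure the spread between these cultures or between lines. Values are log2 units of RMA, a summary that corrects background, equalises arrays of a run and combines the probes of a probe set. The upper quartile of an array lay at 7.82 to 8.08 in batches 1 to 3 and at 5.80 to 6.59 in batches 4 and 5, so levels are compared only within each of these sets and changes only within a line and batch. Untreated SKOV-3 was measured in batches 4 and 5 and read 3.06 and 2.52 for CEACAM6, and 5.09 and 4.75 for CEACAM19. Small differences in level between lines of batch 4 and lines of batch 5 are therefore uncertain.

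CEACAM proteins are immunoglobulin-like surface glycoproteins that bind each other or themselves between neighbouring cells. CEACAM1 spans the membrane, occurs in epithelium, endothelium and leukocytes, and its long form carries inhibitory motifs that recruit the phosphatases SHP1 and SHP2. CEACAM5, the carcinoembryonic antigen used as a tumour marker, CEACAM6 and CEACAM7 are held in the membrane by a glycosylphosphatidylinositol (GPI) anchor and are known from mucosal epithelium, CEACAM7 mainly from the colon. CEACAM19 is a more distant member with a transmembrane segment. In ovarian carcinoma, CEACAM5 and CEACAM6 are known mainly from tumours of mucinous type.

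All 5 genes lie on chromosome 19. In the RefSeq gene order CEACAM7, CEACAM5 and CEACAM6 followed each other, CEACAM1 stood between CXCL17 and CEACAM8, and CEACAM19 stood between PVR and CEACAM16. RefSeq promoter windows on GRCh38.p14 were found for CEACAM1, CEACAM5, CEACAM6 and CEACAM7. The 250 bases before each start are shown because CEACAM5 and CEACAM6 had like levels over the lines and CEACAM1 had the largest change of the 5 genes. Capitals mark the matches, on either strand, to a GC box (GGGCGG), an E-box (CACGTG), the core of an interferon element (GAAA, any 2 bases, then GAAA) or a TATA box (TATAAA); the AP-1 site TGANTCA was also searched. No match overlapped another.
CEACAM1, chr19:42528482-42528731, minus strand: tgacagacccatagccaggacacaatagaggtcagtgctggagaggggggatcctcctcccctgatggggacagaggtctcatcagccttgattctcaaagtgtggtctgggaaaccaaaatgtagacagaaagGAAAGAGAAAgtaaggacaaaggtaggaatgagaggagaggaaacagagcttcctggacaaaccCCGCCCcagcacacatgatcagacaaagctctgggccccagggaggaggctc
CEACAM5, chr19:41708376-41708625, plus strand: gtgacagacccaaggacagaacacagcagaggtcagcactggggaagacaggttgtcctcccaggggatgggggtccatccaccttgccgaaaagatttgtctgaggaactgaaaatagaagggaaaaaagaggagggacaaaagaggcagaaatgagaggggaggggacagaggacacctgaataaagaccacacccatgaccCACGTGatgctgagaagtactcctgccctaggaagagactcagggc
CEACAM6, chr19:41755280-41755529, plus strand: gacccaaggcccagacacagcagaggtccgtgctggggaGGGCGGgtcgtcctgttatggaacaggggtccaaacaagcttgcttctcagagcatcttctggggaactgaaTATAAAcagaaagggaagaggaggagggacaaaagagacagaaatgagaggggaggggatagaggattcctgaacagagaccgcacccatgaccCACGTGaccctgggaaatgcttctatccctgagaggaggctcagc
CEACAM7, chr19:41688271-41688520, minus strand: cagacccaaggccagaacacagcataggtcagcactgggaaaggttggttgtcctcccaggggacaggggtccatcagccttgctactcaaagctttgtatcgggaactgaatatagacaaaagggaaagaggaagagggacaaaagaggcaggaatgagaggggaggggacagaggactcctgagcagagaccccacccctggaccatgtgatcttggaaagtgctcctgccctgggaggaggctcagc

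In pairwise global alignment the windows of CEACAM5 and CEACAM7 were 80.5% identical, those of CEACAM6 and CEACAM7 79.0% and those of CEACAM5 and CEACAM6 73.6%. The window of CEACAM1 was 64.4% identical to that of CEACAM5, 67.6% to that of CEACAM6 and 70.0% to that of CEACAM7. The windows of CEACAM5 and CEACAM6 each held 1 E-box, at 46 to 41 and 45 to 40 bases before the start; 6.3% of the 35116 RefSeq windows of this length held one. CEACAM1 held the interferon element core at 116 to 107 bases before its start, a match found in 3.0% of windows, and a GC box on the opposite strand at 52 to 47 bases, found in 42.6%. CEACAM6 also held a GC box at 211 to 206 bases and a TATA box at 139 to 134 bases, the latter found in 10.7% of windows. None of the 5 motifs was matched in the window of CEACAM7, and the AP-1 site, found in 6.6% of windows, was matched in none of these 4. These matches are descriptions of the letters only. Because the genes share sequence, probes for one may also bind RNA of another, which the deposited values cannot show.

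The lines were checked against markers. The 12 ovarian carcinoma markers had median line means of 7.70 in batches 1 to 3 and 6.58 in batches 4 and 5. The means of 17 leukocyte markers stayed within 4.62 to 5.05 and 3.53 to 4.14. The means of 11 endothelial markers had medians of 5.37 and 4.00, with TYK-nu apart at 8.69. Treated culture 1 of OVCAR-10 and treated culture 3 of OVCA420 stood apart from their own lines, with highest correlations of 0.959 and 0.982 to another culture of the line. In bulk RNA, fewer cells with a transcript and less of it per cell cannot be told apart.

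CEACAM6 was high in a few lines and low in the rest. In OVCA420 its 3 untreated cultures read 11.70, 11.72 and 11.64, which placed it at the 99.0th percentile of all genes. The untreated cultures of OV90 read 8.76, 8.87 and 8.92, and those of A2008 read 5.23, 5.06 and 5.57. These 3 lines did not overlap each other or any of the remaining 15 lines, whose means ran from 3.49 in DOV13B to 4.15 in TYK-nu. Among those 15 lines neighbours in the order were within their own spread, the median SD over cultures being 0.22. In batches 4 and 5, with 1 culture each, CEACAM6 read 7.11 in Caov-2, 6.68 in OVCAR-2, 5.86 in PEO1 and 5.65 in OVCAR-5. All other values of that set lay between 2.52 in SKOV-3 (batch 5) and 3.48 in DOV13A.

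CEACAM5 was raised in nearly the same lines. Its untreated cultures read 7.21, 7.21 and 7.03 in OVCA420, 6.22, 6.10 and 6.23 in OV90, and 5.52, 5.87 and 5.85 in A2008. No culture of the other 15 lines of batches 1 to 3 reached these values, and their means ran from 4.09 in DOV13 to 4.54 in CH1. In batches 4 and 5 CEACAM5 read 6.92 in OVCAR-2, 4.62 in OVCAR-5, 4.61 in Caov-2 and 4.43 in SKOV-6, with every other value at or below 3.85. The order differed from that of CEACAM6 at several places. PEO1 ranked after Caov-2 and OVCAR-2 for CEACAM6 but read 3.61 for CEACAM5, and SKOV-6 was raised for CEACAM5 but read 3.27 for CEACAM6.

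**Figure D1:**
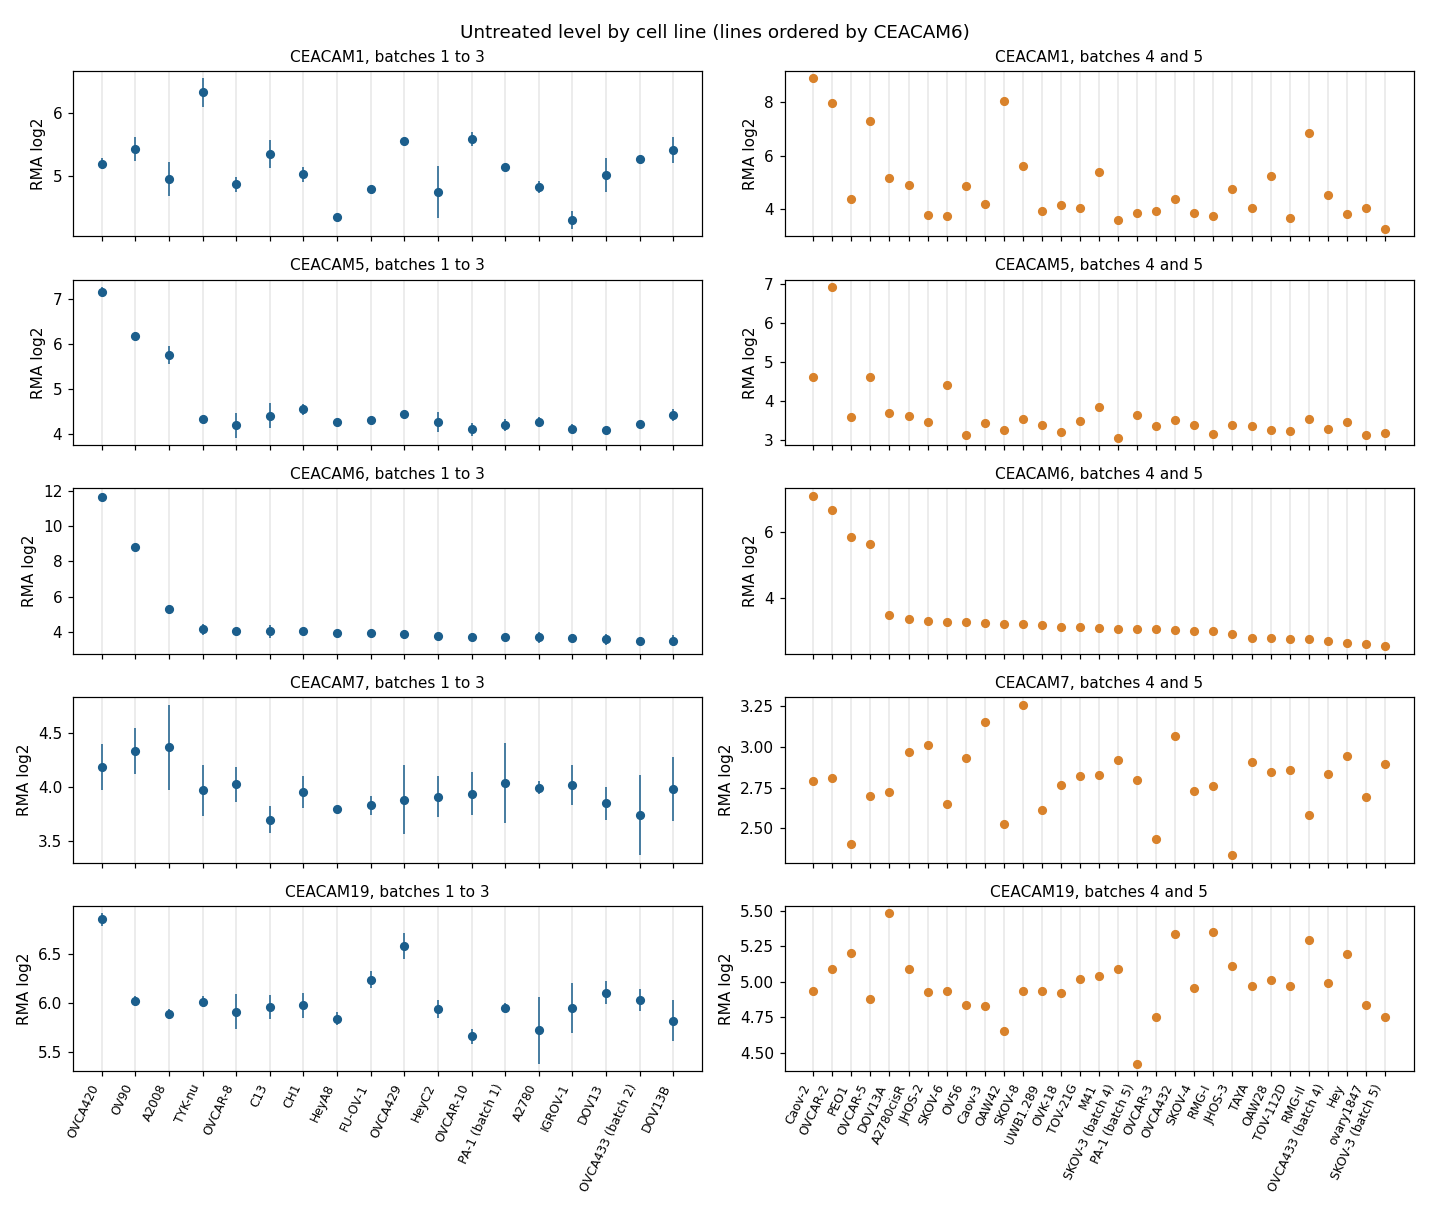
Untreated log2 level of each gene by line, in batches 1 to 3 (blue, mean of cultures with SD as bars) and in batches 4 and 5 (orange, 1 culture each); each panel has its own axis, lines are ordered by CEACAM6, and levels of different genes are not to be compared. CEACAM6 reads 11.69 in OVCA420 and 8.85 in OV90, and CEACAM1 is highest in Caov-2 at 8.90.

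**Figure D2:**
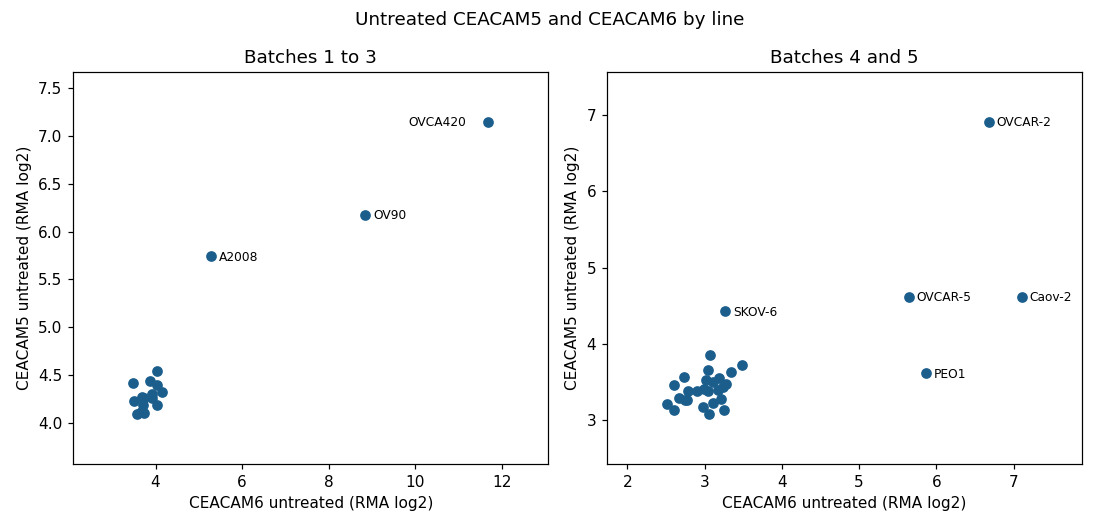
Untreated CEACAM5 (vertical axis, log2) against CEACAM6 (horizontal axis, log2), 1 point per line and batch, for the 2 sets of batches. OVCA420, OV90 and A2008 on the left and OVCAR-2, Caov-2, OVCAR-5 and PEO1 on the right stand apart from a dense group of low lines.

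CEACAM5 and CEACAM6 were described together by their correlation over the 46 lines, with levels centred within batch. Pearson's r was 0.84, and no other gene was closer to CEACAM5. Over the 39 lines outside the 7 with CEACAM6 above 5, r was 0.70. The batch means used for centring still held those 7 lines, so r over the 39 lines also carries their levels. Likeness among the low lines alone cannot be read from it. The points share arrays, and so part of their error. The 7 lines were chosen from these values. CEACAM5 and CEACAM1 had r = 0.45 and CEACAM6 and CEACAM1 had r = 0.39, but over the 39 lines these were 0.14 and 0.17.

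Beside CEACAM5, the genes whose untreated levels were most like that of CEACAM6 over the 46 lines were AKR1B10 (an aldo-keto reductase, r = 0.86), TSPAN8 (a tetraspanin of gastrointestinal epithelium, r = 0.84), LGALS4 (the intestinal lectin galectin-4, r = 0.81), ADAM28 (a metalloprotease, r = 0.80) and ANXA10 (an annexin of gastric epithelium, r = 0.79). Over the 39 lines they were 0.48, 0.58, 0.72, 0.36 and 0.47, the highest being that of LGALS4. Values over the 39 lines also carry the 7 high lines through the batch means. How far each gene depended on the 7 lines cannot be read from them. For CEACAM5, after CEACAM6, they were APOH (a plasma glycoprotein, r = 0.82), F5 (coagulation factor V, r = 0.79), TSPAN8 (r = 0.79), AKR1B10 (r = 0.77) and ANXA10 (r = 0.76). Over the 39 lines the same genes had r of 0.57, 0.55, 0.41, 0.48 and 0.37. AKR1B10, TSPAN8 and ANXA10 thus stood in both lists, whose source genes were themselves correlated.

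The lines with high CEACAM6 were set beside lists of differentiation genes. OVCA420 had the highest mean of the 25 mucosal differentiation genes among the 18 lines, 6.32, and of the 9 colorectal epithelium markers, 6.75. OV90 was second in both, with 6.17 and 5.10. In batches 4 and 5, Caov-2 was first for the mucosal list with 5.77 and second for the colorectal list with 5.37, and OVCAR-2 was second with 5.68 and first with 5.38. The other 3 high lines stood lower in these lists. A2008 was 6th of 18 for the mucosal list with 5.27 and 10th for the colorectal list with 4.81, below the median of 4.83. OVCAR-5 was 6th of 31 in both, with 4.76 and 4.22, and PEO1 was 9th for the mucosal list with 4.56 and 24th for the colorectal list with 3.76. Some lines low for CEACAM6 stood above these high lines. OVCA429, OVCAR-8 and C13 were 3rd, 4th and 5th of 18 for the mucosal list with 5.88, 5.74 and 5.48, above A2008. RMG-II read 2.74 for CEACAM6 and was 3rd of 31 in both lists with 5.04 and 4.58, above OVCAR-5 and PEO1. The mean of the 30 epithelial adhesion genes had r = 0.23 with CEACAM6, 0.16 with CEACAM5 and 0.07 with CEACAM1 over the 46 lines. For this list OVCA420 was 2nd of 18 with 9.71, A2008 6th with 9.30 and OV90 11th with 6.94. PEO1 was 2nd of 31 with 8.19, Caov-2 15th with 6.85, OVCAR-2 16th with 6.80 and OVCAR-5 17th with 6.78. The median of the high lines was 9.30 against 7.39 in the other lines of batches 1 to 3, and 6.82 against 6.47 in batches 4 and 5. TSPAN8, LGALS4 and ANXA10, named above as like CEACAM6 in level, are in the mucosal list, and LGALS4 is also in the colorectal list.

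CEACAM1 had a different pattern, with its largest differences in batches 4 and 5. It read 8.90 in Caov-2, at the 93.0th percentile of all genes, 8.05 in OAW42, 7.97 in OVCAR-2, 7.29 in OVCAR-5 and 6.85 in RMG-II. The next value was 5.64 in SKOV-8 and the lowest 3.26 in SKOV-3 (batch 5). Caov-2, OVCAR-2 and OVCAR-5 were also high for CEACAM6, but OAW42 and RMG-II read 3.21 and 2.74 for it. In batches 1 to 3 CEACAM1 ran from 4.30 in IGROV-1 to 6.32 in TYK-nu, at the 47.7th percentile.

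The 3 untreated cultures of TYK-nu read 6.55, 6.32 and 6.10 for CEACAM1, above all cultures of the second line, OVCAR-10, which read 5.48, 5.55 and 5.71. OVCAR-10 overlapped the next line, OVCA429, with 5.59, 5.53 and 5.51. At the low end HeyA8 (4.36, 4.30 and 4.37) and IGROV-1 (4.33, 4.41 and 4.14) overlapped. CEACAM1 is known from endothelium, and TYK-nu had the highest endothelial list mean, 8.69; its part in the CEACAM1 level was not tested. OVCA420 and OV90, the lines with most CEACAM6, read 5.20 and 5.43 for CEACAM1, between the extremes of the set.

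Over the 46 lines the genes most like CEACAM1 in untreated level were DDC (an aromatic amino acid decarboxylase, r = 0.78), B3GALT5 (a galactosyltransferase, r = 0.77), CYP2B6 (a cytochrome P450, r = 0.77), FABP4 (a fatty acid binding protein, r = 0.68) and CYP2B7P (r = 0.66). Without Caov-2 and OAW42, the lines farthest from the median, r was 0.64, 0.66, 0.63, 0.69 and 0.49. CYP2B6 and the pseudogene CYP2B7P are near-identical, so their separate values are uncertain.

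CEACAM7 was low in all lines. Its untreated means ran from 3.69 in C13 to 4.37 in A2008 in batches 1 to 3, at the 8.3rd to 16.7th percentile, and from 2.33 in JHOS-3 to 3.26 in SKOV-8 in batches 4 and 5. The range of 0.68 over 18 lines was small beside an SD over cultures with a median of 0.20 and a highest value of 0.40. Arrays of the same HeyA8 culture differed by 0.82 for this gene, reading 4.20 and 3.37. The highest correlations of its untreated level, with POM121L4P, SRD5A2, SMPD3, OR10A7 and ADH7, were 0.49 to 0.53.

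CEACAM19 had a narrow range with a pair of lines above it. Its untreated cultures read 6.85, 6.91 and 6.79 in OVCA420, and 6.43, 6.67 and 6.65 in OVCA429. The third line, FU-OV-1, read 6.29, 6.28 and 6.13, and these 3 lines did not overlap each other. FU-OV-1 overlapped DOV13, with 6.19, 6.14 and 5.97, and the lowest mean was 5.66 in OVCAR-10. In batches 4 and 5 it ran from 4.42 in PA-1 (batch 5) to 5.48 in DOV13A. CEACAM19 had r = 0.44 with the mean of the 30 epithelial adhesion genes, the highest value among the 5 genes, and 0.39 without DOV13A and OVCA420. The genes most like it were INAVA, BRINP1, CYP4F3, DCAF4L2 and FAAP100, with r between 0.59 and 0.61.

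After cisplatin, CEACAM1 was higher in 37 of 46 lines and lower in 9. The mean change was 0.48 ± 0.092 log2 units (SE, n = 46 lines), 1.40-fold, with an SD over lines of 0.62 and a median of 0.39. Among all genes 35 had a larger mean change. The other 4 genes had means near 0.1: CEACAM6 0.11 ± 0.059, CEACAM7 0.078 ± 0.048, CEACAM5 0.075 ± 0.055 and CEACAM19 0.053 ± 0.040 (SE, n = 46 lines each). They were higher in 31, 29, 28 and 27 lines. The median change of the 5 genes was 0.078 and that of all genes -0.0061. With limma's moderated test and Benjamini-Hochberg adjustment at 0.05, 1 of the 5, CEACAM1, was called; 9.7% of all genes were called, 4.98% higher and 4.72% lower. This contrast chose the genes.

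**Figure D3:**
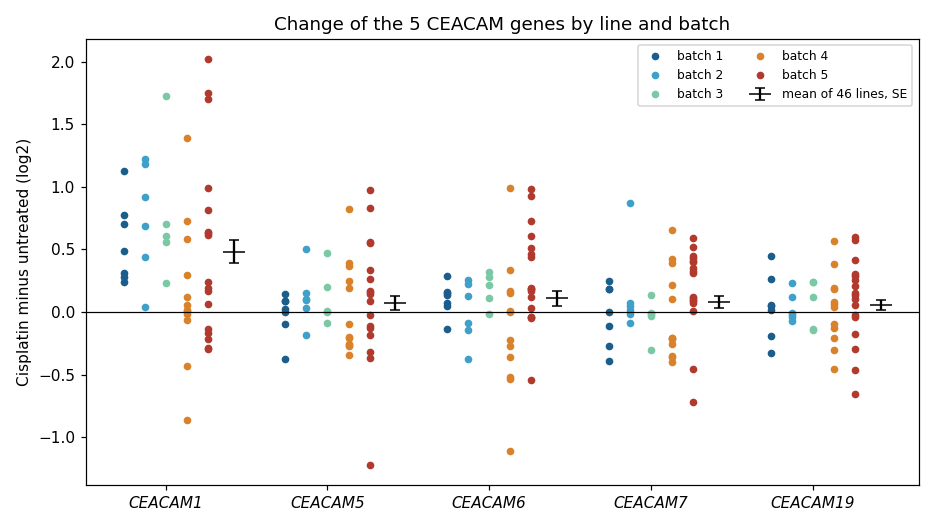
Cisplatin minus untreated (log2, vertical axis) for each of the 5 genes, 1 point per line and batch coloured by batch, with the mean of 46 lines and its SE in black. The CEACAM1 points reach 2.02 and have a mean of 0.48; the means of the other 4 genes lie between 0.053 and 0.11.

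The mean change of CEACAM1 was above 0 in each batch, though by less than its SE in batch 4. It was 0.56 ± 0.12 in the 7 lines of batch 1, 0.75 ± 0.19 in the 6 of batch 2 and 0.77 ± 0.25 in the 5 of batch 3, with all 18 lines higher. In batch 4 it was 0.15 ± 0.16 with 8 of 12 lines higher, and in batch 5 it was 0.51 ± 0.18 with 12 of 17 lines higher (SE over lines). The 9 lines that were lower thus all came from batches 4 and 5, where each value rests on 1 culture per arm. Line and batch cannot be told apart here, because only OVCA433 was treated in both sets. In OVCA433 the change was 0.44 in batch 2 and 0.59 in batch 4.

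**Figure D4:**
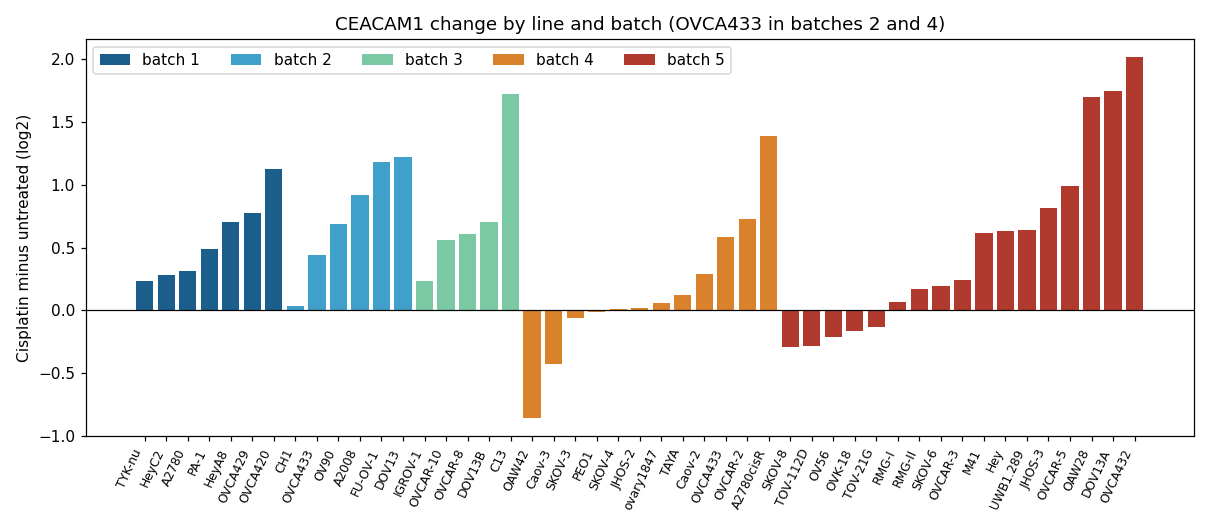
CEACAM1, cisplatin minus untreated (log2, bars from 0), for each line, ordered within batches 1 to 5 by colour. Every bar of batches 1 to 3 is above 0, and the bars of batches 4 and 5 run from -0.86 in OAW42 to 2.02 in OVCA432.

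The largest CEACAM1 changes of the replicated lines were in C13, DOV13, FU-OV-1 and OVCA420. In C13 the untreated cultures read 5.44, 5.52 and 5.10 and the treated ones 6.91, 7.41 and 6.92, a difference of 1.73 or 3.31-fold. In DOV13 they read 5.08, 5.24 and 4.72 untreated and 6.40, 6.11 and 6.20 treated, a difference of 1.22. FU-OV-1 had the tightest cultures, 4.77, 4.79 and 4.82 untreated against 5.95, 5.95 and 6.03 treated, a difference of 1.18. None of these treated cultures overlapped the untreated ones.

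OVCA420 read 5.10, 5.21 and 5.28 untreated and 6.43, 6.40 and 6.13 treated for CEACAM1, a difference of 1.13. The smallest change was in CH1, with 4.98, 5.15 and 4.93 untreated and 4.99, 5.10 and 5.09 treated. TYK-nu, with the highest untreated level, read 6.70, 6.68 and 6.30 after treatment, and these overlapped its untreated cultures. HeyC2, IGROV-1, CH1 and TYK-nu were the 4 lines whose arms overlapped.

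In 14 of the 18 replicated lines every treated culture was above every untreated one for CEACAM1, where 13.1% of all pairs of gene and line had that order. The same changes were among those that chose the gene, so the calls that follow are a description. By limma within each line, CEACAM1 was called higher in 12 lines: HeyA8, OVCA420, OVCA429, PA-1, OV90, FU-OV-1, A2008, DOV13, OVCAR-10, DOV13B, C13 and OVCAR-8. Within these 12 lines the share of all genes called was 13.7%, 11.5%, 3.9%, 22.8%, 2.92%, 27.8%, 5.15%, 3.31%, 4.18%, 1.46%, 17.7% and 13.4%, in the same order. In the 6 lines without a call for CEACAM1 it was 5.13% in HeyC2, 3.53% in A2780, 0.076% in TYK-nu, 1.98% in CH1, 2.68% in OVCA433 and 6.96% in IGROV-1. For comparison, 63.3% of all genes were called in at least 1 line and 2.33% were called higher in 5 or more. The F test of a difference in change between the 18 lines called 51% of all genes and 1 of the 5, CEACAM1. When each line was fitted alone, CEACAM1 was called in 8 lines, and the median line had 410 of all genes called, against 857 in the joint fit.

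**Figure D5:**
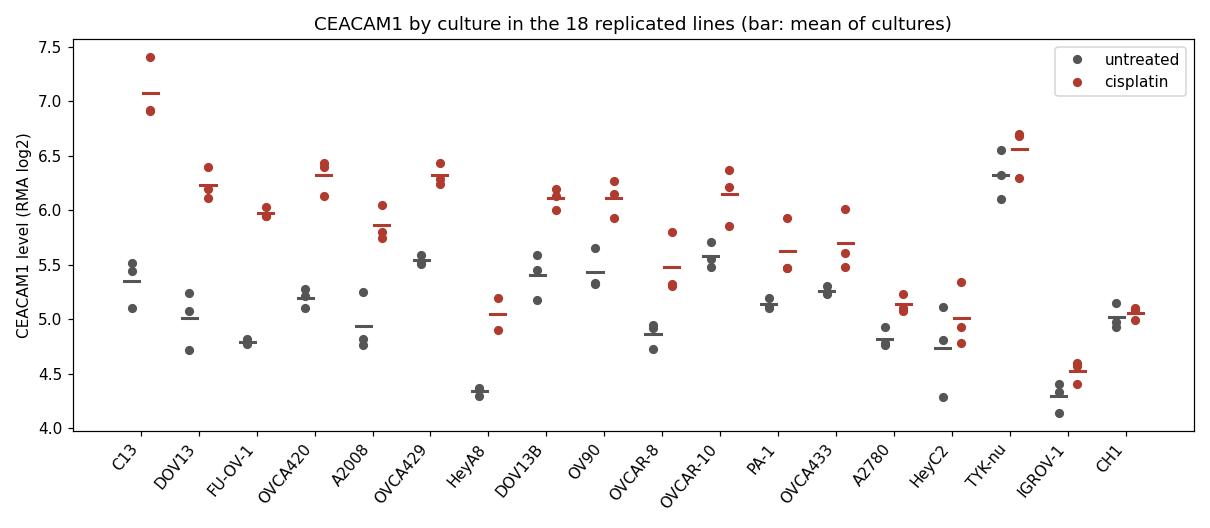
CEACAM1 level (log2) in every culture of the 18 replicated lines, untreated in grey and cisplatin in red, with bars at the means and lines ordered by the size of the change. C13 moves from 5.35 to 7.08, while the arms of HeyC2, TYK-nu, IGROV-1 and CH1 overlap.

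In batches 4 and 5 the largest differences were in OVCA432, from 4.40 to 6.42, DOV13A, from 5.16 to 6.90, OAW28, from 5.23 to 6.93, and A2780cisR, from 4.92 to 6.31. The largest falls in value were in OAW42, from 8.05 to 7.18, and Caov-3, from 4.20 to 3.77. Of the 5 lines with the highest untreated CEACAM1 in this set, 4 were higher after cisplatin: OVCAR-5 by 0.99, OVCAR-2 by 0.73, Caov-2 by 0.29 and RMG-II by 0.17. Over 46 lines the change had r = 0.10 with the untreated level.

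Lines known or named as relatives were set side by side for CEACAM1. The change was 0.31 in A2780 and 1.39 in A2780cisR, which were measured in batches 1 and 4. It was 0.92 in A2008 and 1.73 in C13, in batches 2 and 3. DOV13, DOV13A and DOV13B had 1.22, 1.75 and 0.71, and HeyA8, HeyC2 and Hey had 0.71, 0.28 and 0.63. A2780cisR, DOV13A and Hey had 1 culture per arm, and log2 differences at low values of the Hey arrays are uncertain. In Hey, CEACAM1 lay at the 20.8th percentile untreated and the 30.3rd after treatment. C13 is known as a cisplatin-resistant derivative line, and the name A2780cisR marks a resistant derivative of A2780. HeyA8 and HeyC2 were both measured in batch 1; for the other relatives line and batch cannot be told apart.

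Changes of CEACAM5 were small in most lines. They exceeded 0.5 in 6 lines and were below -0.5 in 1. The largest were in OVCAR-5, from 4.62 to 5.60, OVK-18, from 3.22 to 4.05, and Caov-2, from 4.61 to 5.43, each on 1 culture per arm. The lowest was in SKOV-6, from 4.43 to 3.21. Among the replicated lines A2008 had the largest, 0.50, with untreated cultures at 5.52, 5.87 and 5.85 and treated ones at 5.80, 6.38 and 6.56, which overlapped. In OVCA429 and CH1 every treated culture was below every untreated one, with changes of -0.37 and -0.18. The upward order was found in 0 lines. Over all pairs of gene and line 12.1% had the downward order and 13.1% the upward one. In OVCA420 the treated cultures spread from 6.68 to 7.79 around an untreated mean of 7.15; the lowest was culture 3, which stood apart over all genes. By limma CEACAM5 was called in 0 of the 18 lines after adjustment, where 63.3% of all genes were called in at least 1. In the same limma fit it had an unadjusted p under 0.05 in 3 lines (2 higher, 1 lower). The share of all genes at that unadjusted threshold within a line is not given, so nothing is read from this count. When the treated cultures that stood apart were left out, CEACAM5 was called in 2 lines after adjustment. The median line then had 1078.5 of all genes called, and nothing is read from these counts.

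CEACAM6 differed by more than 0.5 upward in 6 lines and downward in 4, all of them in batches 4 and 5. Caov-2 went from 7.11 to 8.10, Hey from 2.61 to 3.59, SKOV-8 from 3.18 to 4.11, OAW28 from 2.77 to 3.50 and OVCAR-5 from 5.65 to 6.26, each on 1 culture per arm. Hey, SKOV-8 and OAW28 started at the 5.5th, 11.6th and 7.2nd percentile of all genes and lay at 8.7, 25.4 and 14.1 after treatment. At such low values repeat arrays of the same culture, in HeyA8 and DOV13, differed by 0.21 to 0.61 for CEACAM6. In Hey, CEACAM7 read 0.52 higher while its percentile fell from 9.1 to 6.8, so log2 differences at low values of this pair of arrays are uncertain. PEO1 went the other way, from 5.86 to 4.75, the lowest change of the gene at -1.11. In the lines with the highest levels the changes were small: OVCA420 read 12.08, 12.02 and 11.84 after treatment, a difference of 0.29 without overlap, and OV90 read 8.90, 8.59 and 8.79, a difference of -0.091. Treated cultures wholly above the untreated ones, as in OVCA420, made up 13.1% of all pairs of gene and line. By limma CEACAM6 was called in 0 of the 18 lines, also at an unadjusted p under 0.05. The share of all genes at the unadjusted threshold within a line is not given, so nothing is read from that count. After adjustment 63.3% of all genes were called in at least 1 line. The changes of CEACAM5 and CEACAM6 had r = 0.42 over the 46 lines, and those of CEACAM1 had r of 0.02 and 0.08 with them.

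CEACAM7 was called in 1 replicated line, A2008, where 5.15% of all genes were called. Its cultures there read 4.54, 4.66 and 3.92 untreated and 4.97, 5.11 and 5.63 treated, a difference of 0.87 without overlap. In A2780 the order was opposite, with 3.93, 3.99 and 4.06 untreated and 3.49, 3.56 and 3.76 treated, a difference of -0.39. The lowest change was -0.72 in OVCA432, the line in which CEACAM1 had its highest. In batch 5 CEACAM7 was higher in 15 of 17 lines, with a mean of 0.18 ± 0.083, while in batch 4 it was higher in 5 of 12, with a mean of -0.017 ± 0.10 (SE over lines). Its change had r = -0.36 with its untreated level, and both share the untreated value.

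CEACAM19 was called in OVCA420 alone, where 11.5% of all genes were called. Its treated cultures there read 7.36, 7.53 and 6.99 against 6.85, 6.91 and 6.79 untreated, a difference of 0.45. FU-OV-1 and OVCAR-10 also had treated cultures wholly above the untreated ones, by 0.23 and 0.24. Over all pairs of gene and line 13.1% had this upward order, so nothing is read from its occurrence in these lines. In batches 4 and 5 the extremes were OV56, from 4.83 to 5.43, and RMG-I, from 5.35 to 4.70.

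The 6 other CEACAM genes measured had mean changes between -0.057 for CEACAM21 and 0.055 for CEACAM8, and adjusted p between 0.447 and 0.997 (limma over 18417 genes); 0 of the 6 had an unadjusted p under 0.05. Their untreated levels varied little, with ranges over the 18 replicated lines of 0.38 for CEACAM4 to 0.51 for CEACAM3, against 2.03 for CEACAM1, 3.06 for CEACAM5, 8.20 for CEACAM6 and 1.19 for CEACAM19. CEACAM7, with 0.68, lay near the first group. CEACAM8, a granulocyte gene next to CEACAM1, had a change of 0.055 ± 0.038 (SE), and CXCL17, on the other side, of -0.033 ± 0.037. Among the 7 pregnancy-specific glycoproteins, close relatives placed beyond CEACAM8, PSG3 rose by 0.24 ± 0.078 (adjusted p = 0.0333) and the other 6 did not pass the test (at an unadjusted p under 0.05, 3 of the 7 were higher and 0 lower); its change had r = -0.28 with that of CEACAM1. PSG genes are near-identical copies, so their separate values are uncertain. Beside CEACAM19, PVR, a nectin-like adhesion receptor, had 0.16 ± 0.078 (adjusted p = 0.191).

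The gene lists below are given with their counts at an adjusted p under 0.05 and, in brackets, at an unadjusted p under 0.05. Over all genes 9.7% passed the first and 22.1% the second (1952 higher and 2115 lower of 18417). Of 15 partners and signalling kinases of CEACAM proteins, 1 rose and 0 fell (unadjusted, 1 higher and 4 lower): SHC1, an adaptor of receptor tyrosine kinases, by 0.18 ± 0.062 (limma adjusted p = 0.0481). Of 18 transcription regulators tied to CEACAM genes, 4 rose and 14 did not pass (unadjusted, 4 higher and 2 lower). IRF1, the interferon regulatory factor known to act on the CEACAM1 promoter, rose by 0.35 ± 0.062 (adjusted p = 7.22e-05), with 37 of 46 lines higher. KLF4 and KLF5, Kruppel-like factors of epithelium, rose by 0.42 ± 0.10 (adjusted p = 0.00253) and 0.19 ± 0.050 (adjusted p = 0.0103). RELA, an NF-kappa-B subunit, rose by 0.17 ± 0.059 (adjusted p = 0.049).

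Interferon-gamma responsive genes were the list with the largest median change, 0.17 over 13 genes against -0.0061 over all genes; 5 rose and 0 fell (unadjusted, 7 higher and 0 lower). The 4 with the largest change are named. CD274, the checkpoint ligand PD-L1, rose by 0.53 ± 0.14 (adjusted p = 0.0051). PSMB9, an immunoproteasome subunit, rose by 0.31 ± 0.068 (adjusted p = 0.00132), and ICAM1, a leukocyte adhesion ligand, by 0.30 ± 0.080 (adjusted p = 0.00714). TAP1, a peptide transporter of antigen presentation, rose by 0.29 ± 0.052 (adjusted p = 0.000119), with 38 of 46 lines higher. Without batch 4, CD274 and PSMB9 lost the call, with adjusted p of 0.071 and 0.0566, as did KLF4 (0.15), KLF5 (0.101), RELA (0.538), PSG3 (0.296) and SHC1 (0.096), all by limma.

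The gene whose change was most like that of CEACAM1 over the 46 lines was GBP3, an interferon-inducible GTPase, with r = 0.59, and 0.51 without DOV13A and OVCA432. CDK18 (r = 0.59), CST6 (r = 0.57), PTAFR (r = 0.56) and ABCA13 (r = 0.56) followed. These are the highest values picked from 18416 genes, and the lowest was -0.63 for H4C4. GBP3 rose over the lines by 0.25 ± 0.072 (adjusted p = 0.0142) and PTAFR, the platelet-activating factor receptor, by 0.19 ± 0.049 (adjusted p = 0.00731). In OVCA432 and OAW28, both high for the CEACAM1 change, the GBP3 difference was 1.81 and 1.97, but in C13 and DOV13A it was 0.49 and 0.51. Of the 18 transcription regulators SOX9 had the highest r with the CEACAM1 change, 0.35, and IRF1 had 0.28. Of the interferon-gamma responsive genes GBP2 had the highest, 0.48, and TAP1, ICAM1, CD274 and PSMB9 had 0.39, 0.37, 0.24 and 0.04. The median r of the 13 interferon-gamma responsive genes with the CEACAM1 change was 0.18, the same as for the 30 epithelial adhesion genes, and 0.01 over all genes. In OAW42, where CEACAM1 was lower by its widest margin, IRF1, TAP1 and PSMB9 read 0.39, 0.75 and 0.98 higher after cisplatin, and CD274 and GBP3 read 0.044 and 0.020 higher. Caov-3 and SKOV-8 had the next lowest CEACAM1 changes. There the differences were 0.10 and 0.69 for IRF1, 0.30 and 0.15 for TAP1, and -0.1 and 0.44 for PSMB9. For CD274 they were 2.53 and -1.98, and for GBP3 0.035 and -0.2. Each of these lines had 1 culture per arm, and a part of these genes in the CEACAM1 change was not tested.

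For the changes of the other genes the highest correlations were of the same size. They were 0.67 for CEACAM5 with ARPC5L, 0.59 for CEACAM6 with SPRR1B, a cornified envelope gene, 0.58 for CEACAM7 with NRG3, and 0.59 for CEACAM19 with LINC03009. None of these 4 genes passed the test over lines.

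Among the 25 mucosal differentiation genes 2 rose and 0 fell (unadjusted, 3 higher and 0 lower). LCN2, the iron-scavenging lipocalin, rose by 0.43 ± 0.11 (limma adjusted p = 0.00594), and SLPI, a secreted protease inhibitor, by 0.26 ± 0.085 (adjusted p = 0.0349, and 0.0965 without batch 4). TSPAN8 and LGALS4, like CEACAM6 in level, had changes of 0.13 ± 0.079 and 0.046 ± 0.048 and did not pass.

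Of 32 genes for other GPI-anchored surface proteins, 2 rose and 1 fell (unadjusted, 5 higher and 1 lower). ULBP2, a ligand of the NKG2D receptor, rose by 0.26 ± 0.086 (adjusted p = 0.0315), CD55, a complement regulator, rose by 0.19 ± 0.056 (adjusted p = 0.0163), and the glypican GPC3 fell by 0.31 ± 0.10 (adjusted p = 0.0261). Of 31 genes for the synthesis and attachment of the GPI anchor, 3 fell and 1 rose (unadjusted, 4 lower and 4 higher). PIGU, a transamidase subunit, fell by 0.36 ± 0.10 (adjusted p = 0.00762), PIGN by 0.31 ± 0.080 (adjusted p = 0.00475) and PIGO by 0.22 ± 0.058 (adjusted p = 0.00767), the last pair being ethanolamine phosphate transferases. PIGL, a deacetylase of the pathway, rose by 0.18 ± 0.047 (adjusted p = 0.0104). Without batch 4, of these 7 genes PIGO alone kept the call.

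Among 30 epithelial adhesion genes 3 fell and 1 rose (unadjusted, 4 lower and 5 higher). KRT19, a simple-epithelial keratin, fell by 0.23 ± 0.080 (limma adjusted p = 0.042), the claudin CLDN3 by 0.19 ± 0.058 (adjusted p = 0.0256) and the splicing factor ESRP2 by 0.15 ± 0.049 (adjusted p = 0.0491). The tight-junction gene MARVELD2 rose by 0.17 ± 0.056 (adjusted p = 0.0421, and 0.0552 with each array centred on its median). None of the 4 kept the call without batch 4, and in the 18 replicated lines alone KRT19 and CLDN3 turned to 0.0301 and 0.0201. CLDN3, although it fell over the lines, had r = 0.46 with the change of CEACAM1, the highest of its list.

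By limma, none of the 24 mesenchymal genes, 17 leukocyte markers, 11 endothelial markers and 9 colorectal epithelium markers passed the test at 0.05; at an unadjusted p under 0.05 they were 6, 0, 1 and 0. The largest mean changes were 0.27 ± 0.10 for SNAI2 (adjusted p = 0.0666) and 0.17 ± 0.075 for SNAI1 (adjusted p = 0.126), transcription factors of the mesenchymal list. Of the 12 ovarian carcinoma markers 1 fell and 0 rose (unadjusted, 3 lower and 0 higher): EMX2, a homeobox gene of the female reproductive tract, fell by 0.18 ± 0.061 (adjusted p = 0.0421, and 0.19 without batch 4).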

How the data were processed

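Arrays of 46 cell lines were grouped by line, arm and batch from the labels. Per the submitters' processing notes the authors used RMA; the log2 table they deposited holds 33297 probe sets. Version and array build are not given in the sources used here. Probe sets with 1 symbol (19460; 1754 had several and 12083 were unlisted) were kept, symbols were updated through RefSeq (19429 matched), and for a gene with several probe sets the one with the highest mean was used, giving 18417 genes. Precision is limited by the number of arrays.

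For each line and batch the mean treated minus mean untreated value was taken, and the 46 differences were tested against 0 with limma 3.58.1 in R 4.3.3 and Benjamini-Hochberg adjustment at 0.05. The 18 replicated lines were fitted with 1 mean per line, arm and batch (71 residual degrees of freedom). OVCA433 entered the fit over 46 lines through both batches, and untreated PA-1 and SKOV-3 of batch 5 had no partner and stayed out of changes. Fits were also run on simulated data with independent normal errors, which cannot show how they behave on these arrays.

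Members, gene lists and motifs were chosen with earlier results of these data known. Genes named are all CEACAM genes, up to 4 per list past the threshold with the largest change (up to 2 where none passed), the 5 most alike per member, chromosome neighbours and extreme lines; other genes were named after their values were seen. Alternatives were batches, replicates or lines left out, array centring, related lines averaged, a culture block and lines fitted alone. Promoters were aligned with Biopython 1.88.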

Additional observations from a re-analysis of the deposited data

Results flagged for a closer look

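CEACAM7 moved in opposite directions in replicated lines. Its change was 0.87 in A2008, with every treated culture above every untreated one, and -0.39 in A2780, with every treated culture below. The difference between these lines was not tested as such, the lines were measured in different batches, and 13.1% and 12.1% of all pairs of gene and line had such upward and downward orders.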

How the results depend on the processing

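The mean changes of CEACAM1, CEACAM5, CEACAM6, CEACAM7 and CEACAM19 kept their sign when any 1 line was left out. In that order the ranges were 0.449 to 0.513, 0.0553 to 0.104, 0.0893 to 0.136, 0.0608 to 0.0961 and 0.0407 to 0.0686. Within single batches not all signs held. The mean was below 0 for CEACAM5 in batch 1 (-0.017) and for CEACAM6 in batch 4 (-0.11). For CEACAM7 it was below 0 in batches 1, 3 and 4 (-0.023, -0.045 and -0.017). Each of these means was smaller in size than its SE over lines. CEACAM1 and CEACAM19 had means above 0 in every batch. The count of 1787 genes called over 46 lines was 1570 without PEO1 and 2373 without Hey, 629 without batch 4, 948 in batches 4 and 5 together, and 2, 2, 6, 578 and 16 in batches 1 to 5 alone; fewer lines enter these fits. The median number of genes called per replicated line, 857, was 188.5 to 595.5 without replicate 1, 2 or 3, and 410 with each line fitted alone. The F test, 9401 genes, gave 3694 to 8379 without a replicate.

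Numbers of cultures did not pair the arms: 7 of 53 pairs had a correlation of deviations over 0.1, from -0.502 to 0.424. With a replicate block the median was 652.5 genes per line, the F test called 8073 genes, CEACAM1 was called in 12 lines and CEACAM5 in 1. By alternatives chosen after seeing the data, CEACAM1 was called in 11 lines without the 2 cultures that stood apart, in 9 to 10 without a replicate and in 12 with each array centred. In these settings the median line had 1078.5, 188.5 to 595.5 and 908 of all genes called, in that order. The changes are those that chose the gene, and nothing is read from these counts.

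Of 24 named list genes called over 46 lines, 18 lost the call in the 18 replicated lines alone and 19 without batch 4; fewer lines enter these fits. Signs turned for CLDN3 (0.117), MARVELD2 (-0.019) and PIGL (-0.0187) in batch 1, CD55 (-0.0472) in batch 2, KRT19 (0.302) and RELA (-0.0493) in batch 3, and CLDN3 (0.0201) and KRT19 (0.0301) in the replicated lines. Low signal limits CEACAM7 and, outside the high lines, CEACAM5 and CEACAM6.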
